A study of Rattus norvegicus with 10 samples.

Results

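Pmp22, Mbp, S100b, Ngfr and Bdnf, genes of the Schwann cell and of the neurotrophins, were followed through muscle taken from beneath the skin of arthritic rats. Every row of the deposited expression table that carries 1 of these 5 symbols was taken, which gave 10 transcripts of 17221, or 5 symbols of 16497. Pmp22, S100b, Ngfr and Bdnf had 1 transcript each and Mbp had 6. The animals were female Wistar rats in which bovine type II collagen had induced arthritis, an autoimmune joint disease that all groups shared. There were 10 libraries in 5 groups of 2, and each library was taken to be 1 rat. The sample titles number the replicates and do not say so. RA_0 rats were sampled before therapy. AP_1h and AP_34d rats received acupuncture, the punction and twirling of a short steel needle on both sides of the lower back and near the tibia, and were sampled after 1 h or 34 days. PLA_1h and PLA_34d rats received a peritoneal injection of sterile saline as placebo and were sampled at the same times. According to the paper, saline was given weekly and the needle was turned every other day. All animals were shaved. The tissue was cut from around the stimulated points on sacrifice, so each rat gave 1 time, and it held subcutaneous tissue as well as muscle.

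Schwann cells wrap the axons of peripheral nerves in myelin. Peripheral myelin protein 22 (Pmp22) and myelin basic protein (Mbp) are proteins of their compact myelin, while the calcium-binding protein S100b is a standard marker of the whole Schwann lineage. Neurotrophins are secreted growth factors for neurons: brain-derived neurotrophic factor (Bdnf), nerve growth factor and neurotrophins 3 and 4. They bind the Trk receptor kinases, and all of them also bind the low-affinity receptor Ngfr (p75NTR), which immature and denervated Schwann cells carry. In muscle such cells lie in the intramuscular nerves and at the neuromuscular junction, among fibers that make up most of the RNA.

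Expression was read as CPM, the authors' read counts scaled to a common library size. Libraries held 5371687 to 8899521 counted reads, which makes 1 CPM worth 4.19 to 10.1 reads. A transcript without reads could thus be as high as 0.297 to 0.716 CPM, the worth of 3 reads, by counting error alone. Muscle fiber markers summed to between 113407 and 286203 CPM per library. Of the defining Schwann cell markers, Prx and Sox10 had reads in all 10 libraries and Mag in 9. Oligodendrocyte markers, which would stand for central myelin, summed to at most 1.14 CPM, and Olig2 was at 0 throughout. The library PLA_34d replicate 1 stood apart in leukocyte markers, which summed to 899.5 CPM there against 105.8 to 509.2 CPM in the others. In bulk tissue, fewer cells of a type and less RNA per cell cannot be told apart. The p-values of limma rest on a spread within groups that was pooled over the 5 groups of 2 rats and moderated over all transcripts tested.

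No member differed between groups at an adjusted p under 0.05 (limma on log2(CPM + 1), Benjamini-Hochberg over 10259 transcripts), in any of 8 comparisons. Of all transcripts tested, 0.0292% passed in AP_1h against RA_0 and 0% in each of the others. Pmp22 and S100b had their 2 highest values in RA_0 replicate 2 and PLA_1h replicate 1, as did 7 of 8 other peripheral myelin transcripts tested. Ngfr and the 1 Mbp transcript with reads were highest in PLA_34d replicate 1. Bdnf had another pattern, lower in both RA_0 rats than in all 8 treated rats, at 0.477 to 3.32 CPM, or 2 to 23 reads per library. The share of all transcripts with that pattern was not counted.

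**Figure D1:**
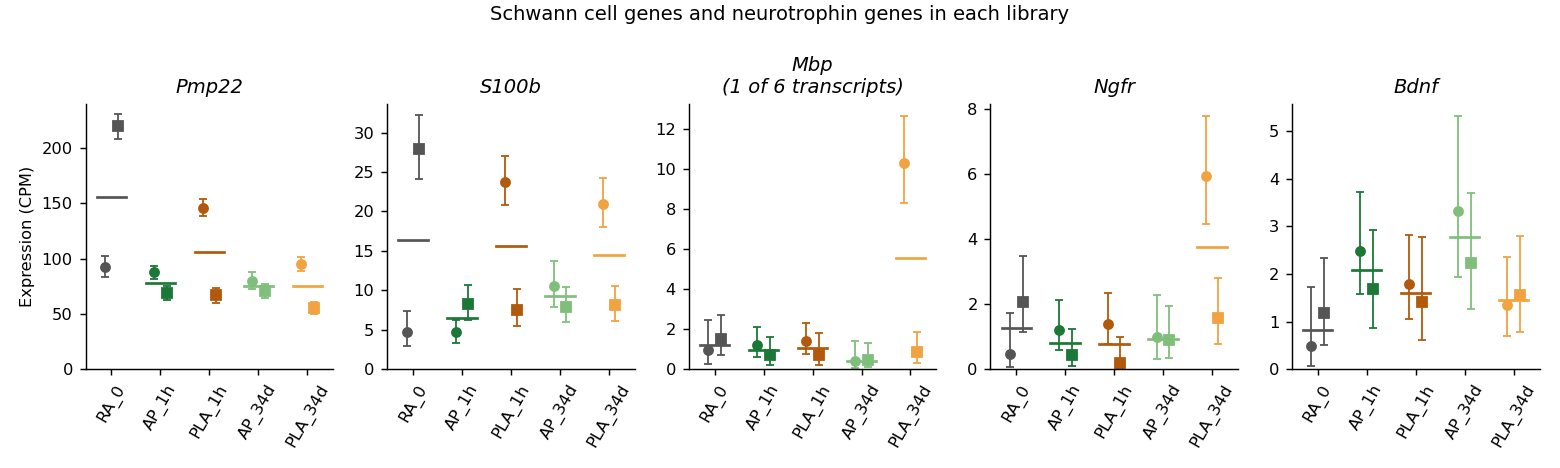
CPM of each member in each library, by group. Circles are replicate 1 and squares replicate 2, whiskers are exact 95% Poisson intervals of the counted reads, and horizontal lines are group means. Pmp22 and S100b are highest in RA_0 replicate 2, Ngfr and Mbp in PLA_34d replicate 1, and Bdnf is lowest in both RA_0 libraries. Each panel has its own scale.

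Pmp22 (NM_017037, rn4 chr10:49305834-49335864, plus strand) encodes a small membrane protein of compact myelin that is also made outside nerve. It measured 92.3 and 219.8 CPM in RA_0, 87.6 and 68.6 CPM in AP_1h, and 146.3 and 66.7 CPM in PLA_1h. At 34 days it measured 79.9 and 70.7 CPM in AP_34d, and 95.2 and 55.2 CPM in PLA_34d. RA_0 replicate 2 and PLA_1h replicate 1 were high, and the other 8 libraries lay between 55.2 and 95.2 CPM. The ratio of the higher to the lower RA_0 library was 2.38 (95% interval of counting error 2.13 to 2.67), and in PLA_1h it was 2.19 (1.96 to 2.46). Counting error therefore covers neither gap, while in AP_34d the ratio was 1.13 (0.988 to 1.29).

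Ordered by mean, Pmp22 ran from RA_0 at 156.1 CPM ± 90.1 (SD, n = 2) through PLA_1h at 106.5 ± 56.3, AP_1h at 78.1 ± 13.4 and AP_34d at 75.3 ± 6.52 to PLA_34d at 75.2 ± 28.3. On the log2(CPM + 1) scale the group means spanned 0.97, less than the 1.24 between the 2 rats of RA_0, so no neighbors in the order differed beyond their spread. The log2 difference from RA_0 was -0.87 ± 0.49 (SE) in AP_1h (unadjusted p = 0.105, adjusted p = 0.663 by limma). It was -0.92 ± 0.49 in AP_34d (adjusted p = 0.967 by limma), -0.97 ± 0.49 in PLA_34d (0.914) and -0.52 ± 0.49 in PLA_1h (0.9997). Both acupuncture groups lay below both RA_0 libraries, as did neither placebo group. Such separation from RA_0, in either direction, held for 41.6% of all transcripts tested in AP_1h and 32.3% in AP_34d. Without RA_0 replicate 2, the differences from RA_0 shrank to between -0.25 and -0.34 in AP_1h, AP_34d and PLA_34d.

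S100b (NM_013191, rn4 chr20:12791439-12824508, minus strand) measured 4.77 and 27.9 CPM in RA_0, 4.65 and 8.26 CPM in AP_1h, and 23.8 and 7.55 CPM in PLA_1h. At 34 days it measured 10.5 and 7.92 CPM in AP_34d, and 21.0 and 8.10 CPM in PLA_34d. RA_0 replicate 2, PLA_1h replicate 1 and PLA_34d replicate 1 stood at 21.0 CPM or more and all others at 10.5 CPM or less. Within RA_0 the ratio of the 2 libraries was 5.85 (3.68 to 9.80), within PLA_1h it was 3.15 (2.27 to 4.47) and within PLA_34d it was 2.59 (1.92 to 3.55). Every group with 1 of these 3 libraries also held a low one, so S100b overlapped between all pairs of groups.

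By mean, S100b ran from RA_0 (16.3 CPM ± 16.4, SD, n = 2) through PLA_1h (15.7 ± 11.5), PLA_34d (14.5 ± 9.10) and AP_34d (9.23 ± 1.86) to AP_1h (6.45 ± 2.55). The group means spanned 1.01 in log2, against 2.33 within RA_0. The log2 difference of AP_1h from PLA_1h was -1.01 ± 0.76 (adjusted p = 0.9999 by limma) and that of AP_34d from PLA_34d was -0.48 ± 0.76 (adjusted p = 0.960). From RA_0 it was -0.84 ± 0.76 in AP_1h, -0.35 ± 0.76 in AP_34d, 0.17 ± 0.76 in PLA_1h and 0.13 ± 0.76 in PLA_34d. The span of S100b on rn4 overlaps that of Prmt2, an arginine methyltransferase gene on the plus strand, and the use of strand in counting was not stated. Prmt2 itself measured 1.56 to 5.83 CPM, and the span of S100b also overlaps that of Mir678. How reads in these overlaps were counted cannot be told.

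Taken over all 8 libraries of treated rats, acupuncture was set against placebo with an exact two-sided permutation test of the mean log2(CPM + 1), whose smallest possible p is 0.0286. Labels were shuffled over all 8 libraries without regard to time, so differences between 1 h and 34 days enter its spread. Pmp22 averaged 76.7 CPM ± 8.77 (SD, n = 4) after acupuncture and 90.8 ± 40.6 after placebo, and the log2 difference of -0.15 had an exact p of 0.714. In limma, which gave the same difference, it was 0.13 without PLA_1h replicate 1 and 0.05 without PLA_34d replicate 1. S100b averaged 7.84 CPM ± 2.43 (SD, n = 4) and 15.1 ± 8.49, with a log2 difference of -0.74 and an exact p of 0.257, and without the same libraries the limma difference was -0.36 and -0.43. Both transcripts spread more among the placebo rats than among the acupuncture rats, a difference in spread that was not tested.

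Of 8142 other transcripts with a mean of at least 5 CPM, Sfrp5, a secreted Wnt antagonist, had the pattern nearest to that of Pmp22 across the 10 libraries (Pearson's r 0.91, Spearman's rho 0.66, log2(CPM + 1)). It measured 15.3 CPM in RA_0 replicate 2 and 14.6 CPM in PLA_1h replicate 1, and 3.64 to 6.95 CPM in the other 8, so it was high in the same 2 libraries as Pmp22. Without them that r was 0.56, and for deviations from the group means it was 0.95. The next nearest were Pea15a, a cytosolic phosphoprotein (r 0.90, and 0.80 without the same 2 libraries), and Rgs2, a regulator of G protein signaling (r 0.89, and 0.79 without them). Of the peripheral myelin transcripts, Mal had r 0.88 with Pmp22 and Prx, the periaxin of the Schwann cell membrane, r 0.87, and without these libraries r was 0.33 and 0.28.

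The transcript nearest to S100b was Prx, which measured 12.9 to 67.0 CPM (r 0.92, rho 0.83, 0.85 without the same 2 libraries). It was followed by Cldn1, a tight junction protein also found in the perineurium (r 0.91), and by Scd1, a fatty acid desaturase abundant in adipocytes (r 0.90). Scd1 ranged from 1.91 to 466.0 CPM and was highest in PLA_1h replicate 1 and PLA_34d replicate 1. The adipocyte hormone Adipoq, at 1.67 to 73.0 CPM, had r 0.73 with S100b and 0.24 with Pmp22, and Mal had r 0.87 with S100b. Fabp4, the most abundant transcript of the adipocyte list, did not follow S100b: it measured 178 CPM in RA_0 replicate 2, 175 CPM in PLA_1h replicate 1 and 138 CPM in PLA_34d replicate 1, against 115.0 to 318 CPM in the others. Cfd and Lep followed S100b in part, highest in PLA_34d replicate 1 (54.2 and 10.3 CPM) but at 26.2 and 1.09 CPM in PLA_1h replicate 1. The sum of that list was highest in AP_34d replicate 1 (384.2 CPM, of which 318 CPM was Fabp4), where S100b was at 10.5 CPM. The part of adipocytes in the level of S100b was not tested. These nearest transcripts were picked out of 8142 on 10 libraries and are a description.

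The Emp genes, relatives of Pmp22 made in many epithelia, followed Pmp22 in part: Emp1 was also highest in RA_0 replicate 2 (112.6 CPM) and second in PLA_1h replicate 1 (87.8 CPM), and Emp2 was highest in RA_0 replicate 2 (28.5 CPM) but at 18.5 CPM in PLA_1h replicate 1, within the 11.4 to 22.2 CPM of the others. Emp3 ranged from 9.71 to 24.9 CPM and was lowest in PLA_1h replicate 1. The smallest p of this family was that of Emp2 in AP_1h against RA_0, with a log2 difference of -1.01 ± 0.29 (adjusted p = 0.309 by limma).

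The bases before the start of Pmp22, S100b and Prx are shown because each was highest in RA_0 replicate 2 and PLA_1h replicate 1. They are the 250 bases before the annotated start, from RefSeq on build GRCr8, 5′ to 3′ on the strand of the gene. Capitals mark a match to the core GTGGGNG of Egr factors, to which Egr2 of myelinating Schwann cells belongs, or to the core ACAANG of Sox factors, to which Sox10 belongs, on either strand.
Pmp22, chr10:48294682-48294931, plus strand: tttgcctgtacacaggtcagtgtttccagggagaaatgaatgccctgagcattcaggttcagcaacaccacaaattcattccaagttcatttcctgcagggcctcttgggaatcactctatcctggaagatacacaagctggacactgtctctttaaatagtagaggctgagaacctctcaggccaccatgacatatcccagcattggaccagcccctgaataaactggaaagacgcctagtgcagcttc
S100b, chr20:12381082-12381331, minus strand: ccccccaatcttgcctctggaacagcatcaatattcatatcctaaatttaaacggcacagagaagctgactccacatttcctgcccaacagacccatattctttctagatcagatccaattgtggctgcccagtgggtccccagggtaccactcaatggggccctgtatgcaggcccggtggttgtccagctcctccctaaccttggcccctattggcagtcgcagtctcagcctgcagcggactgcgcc
Prx, chr1:91914171-91914420, plus strand: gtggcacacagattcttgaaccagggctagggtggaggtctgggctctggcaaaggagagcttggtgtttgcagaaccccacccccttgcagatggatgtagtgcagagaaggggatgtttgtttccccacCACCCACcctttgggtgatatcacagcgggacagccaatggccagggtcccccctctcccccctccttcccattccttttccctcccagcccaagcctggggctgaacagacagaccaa
Prx held 1 match to GTGGGNG on the opposite strand, and neither Pmp22 nor S100b held a match to either core. Of 33469 promoters of the same length, 25.6% held GTGGGNG and 36.9% held ACAANG. These matches describe letters in a short window.

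The other genes of peripheral myelin were described from a list of 13, of which 11 were in the table and 8 passed the filter, which asks for 1 CPM in both rats of some group. Beside Prx these were Mal, a proteolipid of compact myelin, Pllp, Ugt8, an enzyme of galactolipid synthesis, Pmp2, a fatty acid carrier, Drp2, Cldn19 and Cnp. In 7 of the 8, the 2 highest libraries were RA_0 replicate 2 and PLA_1h replicate 1, as they were in 160 (1.56%) of the 10259 transcripts tested. Mal measured 20.8 and 19.3 CPM in those libraries and 5.27 to 10.1 CPM in the other 8. Pllp measured 7.43 and 6.64 CPM there and 2.15 to 4.04 CPM elsewhere. Ugt8 measured 8.02 and 10.4 CPM there against 0.586 to 3.92 CPM elsewhere. The exception was Cnp, an enzyme also made outside myelin, which was highest in PLA_34d replicate 1 (82.7 CPM) and lay between 15.7 and 43.2 CPM in the others.

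**Figure D2:**
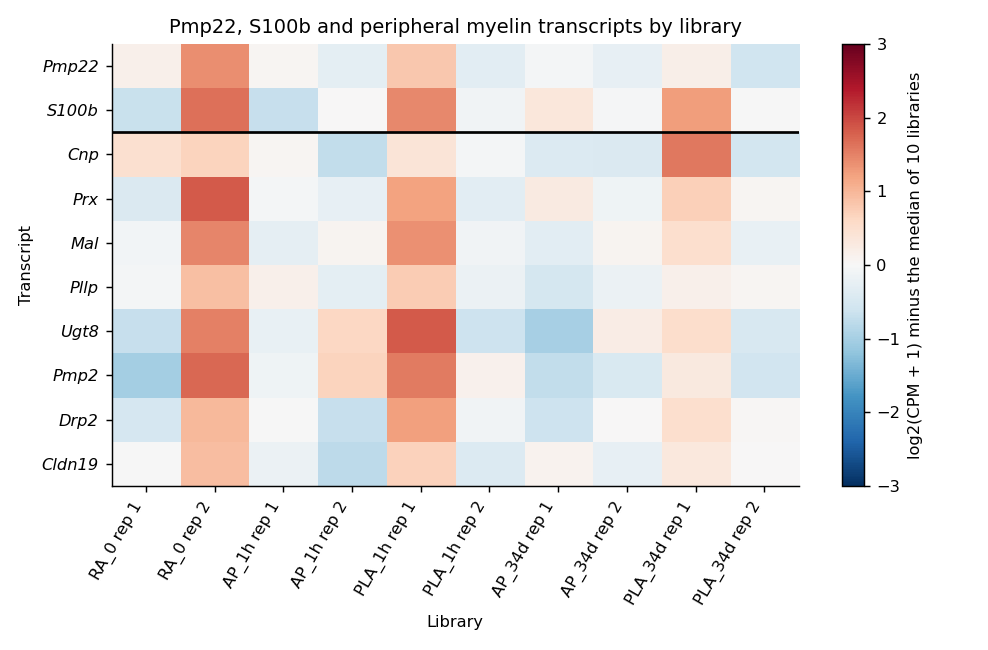
Log2(CPM + 1) of Pmp22, S100b and the 8 tested peripheral myelin transcripts in each library, as the difference from the median of the 10 libraries of that transcript. Red is above and blue below the median. The columns of RA_0 replicate 2 and PLA_1h replicate 1 are red in all 10 rows, while RA_0 replicate 1 and PLA_1h replicate 2 are pale or blue in most.

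None of the 8 myelin transcripts passed the adjusted threshold in any comparison. Their median log2 difference was -0.70 in AP_1h and -0.78 in AP_34d from RA_0, with all 8 negative, -0.59 in AP_1h from PLA_1h and -0.44 in AP_34d from PLA_34d, again with all 8 negative. In the placebo groups it was -0.10 in PLA_1h (5 of 8 negative) and -0.32 in PLA_34d (7 of 8 negative) from RA_0. Over all transcripts tested the medians of these 6 comparisons lay between -0.011 and 0.0077. The sign rested on single rats. Without RA_0 replicate 2 the medians from RA_0 were 0.06 in AP_1h and 0.07 in AP_34d, with 4 of 8 negative in each, and 0.80 in PLA_1h (7 of 8 positive) and 0.47 in PLA_34d (8 of 8 positive). Without PLA_1h replicate 1 and RA_0 replicate 2, the median of AP_1h from PLA_1h was 0.05, and without PLA_34d replicate 1 that of AP_34d from PLA_34d was 3.87e-05.

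Of 13 genes of Schwann cell identity, 12 were in the table and 9 were tested, of which 2, Scn7a and Dhh, had RA_0 replicate 2 and PLA_1h replicate 1 as their 2 highest libraries. Scn7a, a sodium channel of non-myelinating Schwann cells, followed the myelin transcripts with 24.7 and 32.2 CPM in the 2 high libraries and 5.49 to 15.1 CPM elsewhere. Dhh, the hedgehog signal of Schwann cells, did so too (3.86 and 2.78 CPM against 1.19 to 1.99 CPM). Sox10, the lineage transcription factor, measured 3.82 and 6.09 CPM in RA_0 and 2.38 and 1.12 CPM in AP_1h, and its log2 difference of -1.13 ± 0.40 did not pass (adjusted p = 0.433 by limma). In PLA_1h it measured 2.08 CPM in replicate 1 and 3.16 CPM in replicate 2, the opposite order to the myelin transcripts. Gap43, a growth cone protein of repair Schwann cells and axons, measured 3.82 and 2.23 CPM in RA_0 and 0.541 and 1.26 CPM in AP_1h (log2 difference -1.08 ± 0.44, adjusted p = 0.528). Egr2, the driver of myelination and an immediate early gene, ranged from 0.195 to 14.3 CPM, and Erbb3, the neuregulin receptor, from 0.954 to 5.27 CPM. Sox10 and Gap43 are also on lists of changed genes that the study made from these libraries, so their direction is not independent evidence.

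Markers of other cells moved with these libraries in part. The muscle fiber markers summed to less in the library high in myelin than in its partner, at 168742 against 284471 CPM in RA_0 and 128802 against 286203 CPM in PLA_1h. In PLA_34d they summed to 118144 CPM in replicate 1, where S100b was high, against 227688 CPM in replicate 2. The lowest sum, 113407 CPM, was in AP_1h replicate 1, where Pmp22 and S100b were not high. Fibroblast markers summed to 3426 CPM in RA_0 replicate 2, the highest of all, and to 1434 CPM in PLA_1h replicate 1. The collagen gene Col1a1 measured 1248 CPM in RA_0 replicate 2 but 238.4 CPM in PLA_1h replicate 1, the second lowest level, and had r 0.45 with Pmp22. Of 8 fibroblast transcripts tested, 5 were highest in RA_0 replicate 2, and Dcn alone had RA_0 replicate 2 and PLA_1h replicate 1 as its 2 highest libraries. The part of fiber and fibroblast content in the Pmp22 and S100b values was not tested.

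Axon transcripts were low. The neurofilament genes Nefl, Nefm and Nefh, whose RNA stays largely in the cell body of the neuron, reached at most 1.29 CPM. Of 10 axon genes 4 were tested: Stmn2 ranged from 1.79 to 8.75 CPM, the peripheral neuron filament Prph from 1.40 to 4.46 CPM, Uchl1 from 0.448 to 4.91 CPM and the neuronal tubulin Tubb3 from 0.175 to 4.54 CPM. Tubb3 had a log2 difference of 1.45 ± 0.53 in AP_1h from PLA_1h, which did not pass (adjusted p = 0.972 by limma).

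Mbp is given by 6 transcripts of which 5 were at 0 in every library. These 5 share the span chr18:79025588-79057329 of rn4, plus strand, and overlap each other, and a read that fits several transcripts is dropped in the counting the study used. The sixth, NM_001025289 (chr18:78943607-79026500), starts upstream of the others, where the golli forms of the gene begin, and overlaps them at its end. It had 151 reads in all libraries together, of which 92 were in PLA_34d replicate 1. It did not pass the filter, so the limma comparisons left it out, and the RNA of compact myelin's Mbp was not measured by this table.

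NM_001025289 measured 0.954 and 1.49 CPM in RA_0, 1.19 and 0.700 CPM in AP_1h, and 1.39 and 0.702 CPM in PLA_1h. At 34 days it measured 0.391 and 0.448 CPM in AP_34d, and 10.3 and 0.853 CPM in PLA_34d. PLA_34d replicate 1 was high and the other 9 libraries did not exceed 1.49 CPM. Within PLA_34d the ratio of the 2 libraries was 12.1 (5.35 to 33.8). By mean the order was PLA_34d (5.59 CPM ± 6.69, SD, n = 2), RA_0 (1.22 ± 0.375), PLA_1h (1.04 ± 0.485), AP_1h (0.944 ± 0.346) and AP_34d (0.419 ± 0.0407), and the gap within PLA_34d, 2.61 in log2, was larger than the 1.69 between group means. Over the 8 treated rats the log2 difference of acupuncture from placebo was -0.88, with an exact permutation p of 0.143 (n = 4 per arm).

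Ngfr (NM_012610, rn4 chr10:84262794-84281006, minus strand), the low-affinity neurotrophin receptor, had 120 reads in all. It measured 0.477 and 2.08 CPM in RA_0, 1.19 and 0.420 CPM in AP_1h, and 1.39 and 0.175 CPM in PLA_1h. At 34 days it measured 0.977 and 0.896 CPM in AP_34d, and 5.95 and 1.56 CPM in PLA_34d. PLA_34d replicate 1 was the highest, and its ratio to replicate 2 was 3.80 (1.96 to 8.07). The lowest value, in PLA_1h replicate 2, stood for 1 read.

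By mean, Ngfr ran from PLA_34d (3.75 CPM ± 3.10, SD, n = 2) through RA_0 (1.28 ± 1.13), AP_34d (0.936 ± 0.0568) and AP_1h (0.804 ± 0.544) to PLA_1h (0.782 ± 0.857). Group means spanned 1.33 in log2 and the 2 rats of PLA_34d 1.44. Ngfr reached 1 CPM in both rats of PLA_34d alone, so it passed the filter only through that group. Its comparisons with PLA_34d are therefore not independent of the filter. Both AP_34d libraries lay below both PLA_34d libraries, a separation seen in 31% of all transcripts tested, and the log2 difference was -1.12 ± 0.59 (unadjusted p = 0.0843, adjusted p = 0.871 by limma). It was -0.41 without PLA_34d replicate 1. The difference of PLA_34d from RA_0 was 0.98 ± 0.59 (adjusted p = 0.914), that of AP_1h from PLA_1h was 0.07 ± 0.59, and over the 8 treated rats acupuncture differed from placebo by -0.53 (exact permutation p = 0.400, n = 4 per arm). That difference was -0.17 in limma without PLA_34d replicate 1.

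The library with the highest Ngfr and Mbp also held leukocyte and adipocyte transcripts. In PLA_34d replicate 1 the B cell receptor component Cd79b measured 72.0 CPM, the B cell antigen Ms4a1 50.8 CPM and the T cell receptor chain Cd3e 36.3 CPM, against at most 1.82, 1.82 and 4.22 CPM in the other 9 libraries. Adipoq measured 73.0 CPM there against at most 21.1 CPM elsewhere. Of the 5 adipocyte transcripts tested, 4 were highest in this library, as were 1952 of all 10259 transcripts tested. The exception was Fabp4, at 138 CPM there against 115.0 to 318 CPM elsewhere. With Fabp4, its most abundant transcript, the adipocyte list summed to 295.0 CPM, within the 151.6 to 384.2 CPM of the other libraries. The transcripts nearest to Ngfr over the 10 libraries were Klhl5 (r 0.99, and 0.96 without PLA_1h replicate 2 and PLA_34d replicate 1), Cd48, a surface protein of lymphocytes (r 0.98 and 0.91), and Myo9b, an unconventional myosin (r 0.97 and 0.88). Of the Schwann cell transcripts, Prx had r 0.60 with Ngfr (0.79 without the same libraries, rho 0.85). Scn7a had r 0.53 (0.63 without them) and Mal r 0.41 (0.54). The part of leukocytes, adipocytes and Schwann cells in the Ngfr and Mbp values was not tested.

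**Figure D3:**
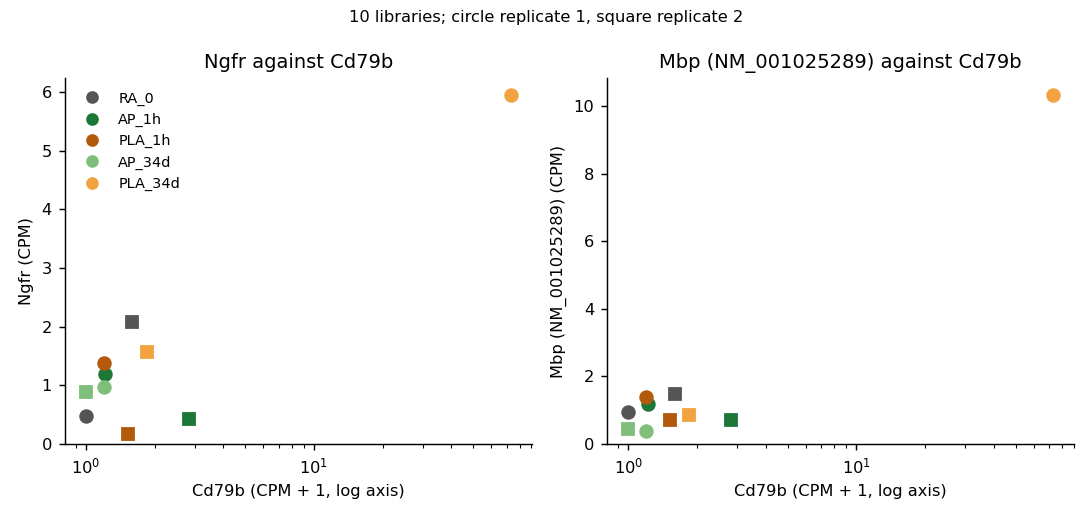
CPM of Ngfr and of Mbp transcript NM_001025289 against the B cell transcript Cd79b (CPM + 1, log axis) in the 10 libraries, colored by group, with circles for replicate 1 and squares for replicate 2. PLA_34d replicate 1 (72.0 CPM of Cd79b) stands alone at the upper right of both panels.

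Bdnf (NM_012513, rn4 chr3_random:929420-979955, plus strand), a neurotrophin made by muscle, Schwann cells and neurons, had 126 reads in all. It measured 0.477 and 1.19 CPM in RA_0, 2.49 and 1.68 CPM in AP_1h, and 1.78 and 1.40 CPM in PLA_1h. At 34 days it measured 3.32 and 2.24 CPM in AP_34d, and 1.35 and 1.56 CPM in PLA_34d. Both RA_0 libraries were below all 8 others, and AP_34d was above RA_0, PLA_1h and PLA_34d. Separation of a single treated group from RA_0, in either direction, held for 29.4% to 41.6% of all transcripts tested. The share separated from RA_0 in all 8 treated libraries was not counted. The RA_0 values stood for 2 and 8 reads (95% Poisson intervals 0.0578 to 1.72 CPM and 0.513 to 2.34 CPM), and the AP_34d values for 17 and 15 reads (1.93 to 5.32 CPM and 1.25 to 3.70 CPM).

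By mean, Bdnf ran from AP_34d (2.78 CPM ± 0.763, SD, n = 2) through AP_1h (2.08 ± 0.571), PLA_1h (1.59 ± 0.269) and PLA_34d (1.45 ± 0.154) to RA_0 (0.833 ± 0.503). Its group means spanned 1.06 in log2, more than the 0.57 within RA_0, its largest gap within a group, and it was the one member for which this held. The log2 difference from RA_0 was 1.06 ± 0.38 in AP_34d (unadjusted p = 0.0198, adjusted p = 0.967 by limma), 0.77 ± 0.38 in AP_1h (0.0730 and 0.619), 0.53 ± 0.38 in PLA_1h (0.200 and 0.9997) and 0.45 ± 0.38 in PLA_34d (0.269 and 0.914). All 4 share the same 2 RA_0 rats. AP_34d lay above PLA_34d by 0.61 ± 0.38 (unadjusted p = 0.142, adjusted p = 0.889 by limma) and AP_1h above PLA_1h by 0.24 ± 0.38, with overlapping libraries.

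Over the 8 treated rats Bdnf averaged 2.43 CPM ± 0.682 (SD, n = 4) after acupuncture and 1.52 ± 0.196 after placebo, a log2 difference of 0.42 with an exact permutation p of 0.0571. The limma estimate over both times was 0.42 ± 0.27 (adjusted p = 0.928), and the difference between times in the effect of acupuncture was 0.37 ± 0.54 (adjusted p = 0.9998 by limma). Nearest to Bdnf were Eif1ad (r 0.92, and 0.89 without RA_0 replicate 1 and AP_34d replicate 1), Usp36, a nucleolar deubiquitinase (r 0.91 and 0.87), and Rrs1, a ribosome assembly factor (r 0.88 and 0.83). Pmp22 had r -0.22 with Bdnf.

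**Figure D4:**
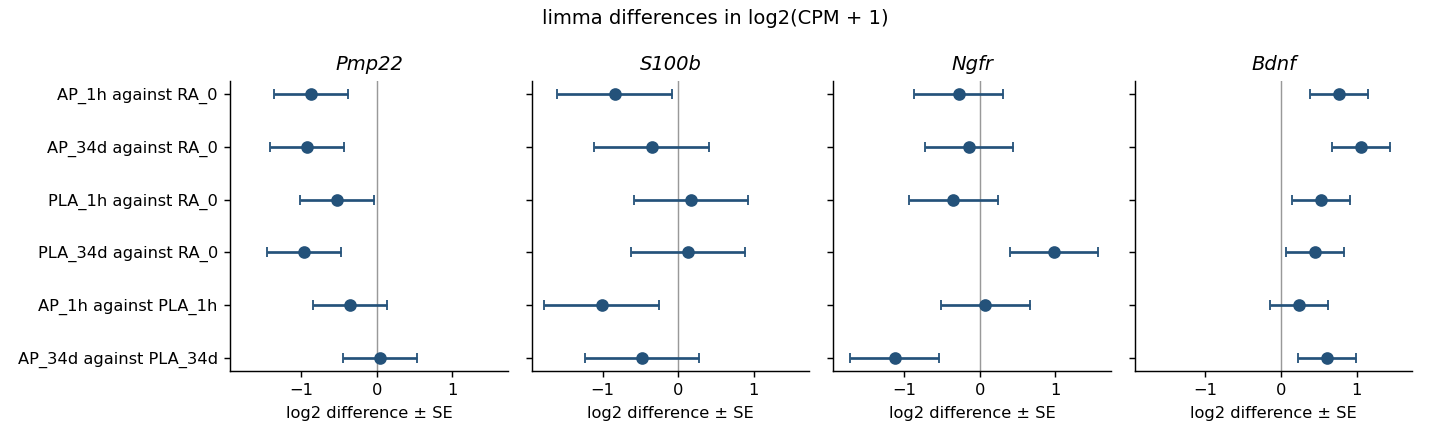
Differences in log2(CPM + 1) of Pmp22, S100b, Ngfr and Bdnf for 6 pairs of groups, from limma over all 10 libraries. Points are estimates and whiskers 1 SE. All 4 Bdnf differences from RA_0 are positive and all 4 of Pmp22 negative, and none passed the adjusted threshold.

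Counted over members, 0 of the 4 tested passed the adjusted threshold in any comparison, and of all tested transcripts 3 did, in AP_1h against RA_0. At the same adjusted threshold edgeR on the recovered reads called 0 transcripts and DESeq2 11 to 173 per comparison. At an unadjusted p under 0.05 the limma fit had between 266 and 912 per comparison. The study's rule of at least 2-fold, unadjusted p under 0.05 and a mean of at least 1 CPM was met by Bdnf in AP_34d against RA_0, where 2.82% of transcripts met it. No member met it in AP_1h (6.12%), PLA_1h (1.67%) or PLA_34d (2.42%) against RA_0, in AP_1h against PLA_1h (2.62%) or in AP_34d against PLA_34d (3.57%). Bdnf was also on the study's own list, so this is not independent. Without AP_34d replicate 1 the rule was met by 0 members. Without RA_0 replicate 1 it was met not by Bdnf but by Pmp22 in AP_1h, AP_34d and PLA_34d and by S100b in AP_1h, all lower than RA_0. Without PLA_34d replicate 2 the log2 difference of Ngfr was 1.70 in PLA_34d from RA_0 and -1.84 in AP_34d from PLA_34d. Ngfr passed the filter only through PLA_34d. Without PLA_34d replicate 1 the log2 difference of Pmp22 was -1.35 in PLA_34d from RA_0.

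Libraries that do not overlap between 2 groups of 2 were common. Against RA_0 this held for Bdnf and Pmp22 in AP_1h (41.6% of all transcripts tested) and in AP_34d (32.3%), and for Bdnf alone in PLA_1h (29.4%) and PLA_34d (31%). It held for no member in AP_1h against PLA_1h (30.6%). In AP_34d against PLA_34d (31%) it held for Bdnf and for Ngfr, which passed the filter through PLA_34d alone. At most 2 of the 4 tested members did so in a comparison, which for so few is near these shares.

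Among the other neurotrophins, Ntf3 ranged from 1.29 to 5.30 CPM and Ntf4 from 0.896 to 6.92 CPM. Neither passed in any comparison. Ntrk2, the Bdnf receptor TrkB, was read from 1 of 3 transcripts and measured 0.239 and 1.63 CPM in RA_0 and 11.1 and 1.99 CPM in PLA_34d, the highest value lying in PLA_34d replicate 1 (log2 difference 1.74 ± 0.62, adjusted p = 0.914 by limma). The receptor Ntrk3 reached at most 1.23 CPM and was not tested.

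Sortilin (Sort1), the partner of Ngfr for the proforms of neurotrophins, had the highest level of the neurotrophin list. It measured 104.7 and 179.3 CPM in RA_0, 422.4 and 377.4 CPM in AP_1h, and 215.1 and 215.7 CPM in PLA_1h. At 34 days it measured 189.5 and 368.4 CPM in AP_34d, and 94.2 and 155.9 CPM in PLA_34d. Both AP_1h libraries exceeded all 8 others, and the log2 difference from RA_0 was 1.54 ± 0.42 (unadjusted p = 0.00422, adjusted p = 0.277 by limma). Furin, the protease that cleaves the proforms, lay above RA_0 in AP_34d by 0.76 ± 0.29 (adjusted p = 0.967). Kidins220, a scaffold of the Trk receptors, ranged from 34.4 to 84.5 CPM and Maged1, which binds Ngfr, from 27.2 to 50.8 CPM. None of the 9 tested transcripts of this list passed the adjusted threshold in any comparison, and the list's median log2 difference lay between -0.32 (AP_34d against PLA_34d) and 0.26 (PLA_1h against RA_0) over the 6 pairs of groups, in which the medians of all transcripts lay between -0.011 and 0.0077. The gene of nerve growth factor itself was not analysed here.

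Of the other growth factors of peripheral nerve and their receptors, 7 of 10 transcripts of the GDNF and CNTF system were tested and none passed. Cntf, which Schwann cells store, ranged from 3.48 to 7.83 CPM, and its receptor Cntfr, which muscle carries, from 16.8 to 183.8 CPM with the highest value in AP_1h replicate 1. Lifr, the shared receptor chain, had its highest values in PLA_34d replicate 1 (38.0 CPM) and AP_34d replicate 2 (32.9 CPM), and its log2 difference of PLA_34d from RA_0 was 1.84 ± 0.66 (adjusted p = 0.914 by limma). Gfra2, the neurturin receptor, ranged from 2.24 to 8.41 CPM. The GDNF receptors Gfra1 and Ret had log2 differences of -1.49 ± 0.47 and -1.38 ± 0.58 in AP_1h from RA_0 (adjusted p = 0.366 and 0.531). Gdnf itself reached 1.19 CPM in RA_0 replicate 2 and was at 0 in 4 libraries.

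No other S100 gene was highest in RA_0 replicate 2, where S100b was highest. Of the 11 tested transcripts of the S100 family list, 10 further S100 genes and the receptor Ager, 0 were highest there. The same held for only 693 of all 10259 transcripts tested, so for so few members 0 is near that share. In PLA_1h replicate 1, where S100b was second highest, S100a3 and S100a13 had their highest values, as did 580 of all 10259 transcripts. S100a6, S100a10, S100a4 and S100a11 were highest in AP_34d replicate 1. S100a16, the highest by mean, measured 114.0 and 64.3 CPM in RA_0 and 38.1 and 34.0 CPM in AP_1h (log2 difference -1.23 ± 0.40, adjusted p = 0.388 by limma). S100a3 had a log2 difference of -1.50 ± 0.47 in AP_1h from PLA_1h (adjusted p = 0.821) and S100a6 of -0.91 ± 0.33 in PLA_34d from RA_0 (adjusted p = 0.914). None of the 11 passed in any comparison.

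Correlations between members were computed for 10 pairs over the 10 libraries on log2(CPM + 1), with p-values from 100000 permutations. The highest by Pearson's r were Mbp with Ngfr (Pearson's r 0.86, permutation p = 0.00766, adjusted p = 0.0766, Spearman's rho 0.70, permutation p = 0.0305, adjusted p = 0.153) and Pmp22 with S100b (r 0.72, permutation p = 0.0180, adjusted p = 0.0899, rho 0.52, permutation p = 0.134, adjusted p = 0.223). S100b with Ngfr followed (r 0.64, permutation p = 0.0398, adjusted p = 0.133, rho 0.59, permutation p = 0.0789, adjusted p = 0.223). By Spearman's rho the highest pair was Pmp22 with Mbp (rho 0.71, permutation p = 0.0261, adjusted p = 0.153), whose r was 0.28 (permutation p = 0.369, adjusted p = 0.527). None passed after adjustment over the 10 pairs. Without the 2 libraries farthest from the median of the first-named member, r was 0.63 for Mbp with Ngfr, 0.11 for Pmp22 with S100b, 0.74 for S100b with Ngfr and 0.52 for Pmp22 with Mbp. The relation of Pmp22 with S100b thus rested on RA_0 replicate 2 and PLA_1h replicate 1. For deviations from the group means, which with 2 rats per group hold 5 independent differences, r was 0.83, 0.91, 0.80 and 0.61 in these pairs. Correlations of Bdnf with the 4 other members lay between -0.27 and 3.60e-05.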

How the data were processed

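The authors sequenced poly(A) RNA libraries (TruSeq v2, Illumina HiSeq). According to their processing notes and methods they used CASAVA 1.8.2, trimmed reads with cutadapt 1.2.1, aligned them to rn4 with Bowtie2 2.1.0, counted them per transcript with HTSeq 0.5.4p3 (intersection-nonempty, strand setting not stated) and scaled them with edgeR 3.4.2. The deposited values are a signal, CPM with TMM factors, and 100% of them were whole reads within 0.01 reads.

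Transcripts that reached 1 CPM in both rats of some group (10259 of 17221, 59.6%) were tested as log2(CPM + 1), which understates changes of low transcripts, with limma 3.58.1 (R 4.3.3), 1 mean per group over all 10 libraries and a mean trend. limma-voom, edgeR 4.0.16 and DESeq2 1.42.0 on recovered reads, other scalings, filters and pseudocounts, a replicate block and single libraries left out were alternatives. The study's methods used limma-voom. Scripts were tested on simulated data. Correlations and exact tests used Python 3.11.15 with scipy 1.17.1, and figures matplotlib 3.10.9. Intervals are exact at 95%.

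Members and gene lists were chosen with earlier results of these data known. From each list the 4 highest by mean and up to 3 with the smallest unadjusted p under 0.05 are named, and for each tested member the 3 nearest transcripts. Some genes of these lists are not reported here and were left out of lists and neighbors. Other genes were named after their values were seen. Replicate numbers were not treated as pairs of samples.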

Additional observations from a re-analysis of the deposited data

Results flagged for a closer look

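The Mbp transcript NM_001025289, which the limma comparisons left out because it did not pass the filter on low values, measured 10.3 CPM in PLA_34d replicate 1, above both RA_0 libraries (0.954 and 1.49 CPM). The part of the leukocyte and adipocyte transcripts of the same library in this value was not tested.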

How the results depend on the processing

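No member was called in any of the 8 comparisons under any of 24 alternatives. With the replicate number as a block, 0 members were called, and the 3 calls of AP_1h against RA_0 among all transcripts became 0. The labels do not say whether same-numbered libraries of different groups share more than a number. Their deviations from the group means correlated with r between -0.46 and 0.45 over 10 pairs of groups, which cannot show whether handling was shared. Bdnf, which rests on 2 to 23 reads per library, kept its direction in all of its comparisons under every alternative that could test it, with adjusted p of at least 0.541. Leaving out a library, the study's rule was met 0 to 4 times, counted over members and comparisons, by at most 2 members. The alternative without RA_0 replicate 2 and PLA_1h replicate 1 together was chosen after seeing the data.

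Log2 differences that passed no test changed sign when single rats were left out, where the lone rat is assumed to vary like the others. For Ngfr they ran from -0.80 to 0.26 (AP_1h from RA_0), -0.67 to 0.39 (AP_34d from RA_0), -0.88 to 0.18 (PLA_1h from RA_0) and -0.44 to 0.58 (AP_1h from PLA_1h). For S100b they ran from -2.0 to 0.33, -1.51 to 0.81, -0.99 to 1.33 and -1.03 to 1.29 from RA_0 (AP_1h, AP_34d, PLA_1h, PLA_34d) and -1.11 to 0.16 in AP_34d from PLA_34d. For Pmp22 they ran from -1.14 to 0.10 (PLA_1h from RA_0), -0.91 to 0.21 (AP_1h from PLA_1h), -0.34 to 0.44 (AP_34d from PLA_34d) and -0.43 to 0.13 (acupuncture from placebo over both times). The joint omission gave the same 0.26 and 0.39 for Ngfr and 0.33 and 0.81 for S100b from RA_0, and 0.21 and 0.13 for Pmp22. edgeR and DESeq2 gave S100b -0.079 and -0.10 in PLA_1h and -0.17 and -0.20 in PLA_34d from RA_0. edgeR gave Ngfr -0.050 in AP_1h from PLA_1h, and quantile normalization and edgeR gave Pmp22 -0.13 and -0.019 in AP_34d from PLA_34d. The cause was not tested. The limma estimates of the difference between times in the effect of acupuncture were also made for Pmp22, S100b and Ngfr, and their values are left out of the report. Among 71 values of these 3 estimates under the alternatives, 5 had the opposite sign (Pmp22 and S100b, each with a PLA library left out) and 0 passed the threshold (smallest adjusted p = 0.470).

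Correlations that moved by 0.2 or more in r, a limit set with the data known, are given here. Centered on group means, r was 0.61 for Pmp22 with Mbp, 0.94 for Pmp22 with Ngfr, and with Bdnf 0.66 for Pmp22, 0.036 for Mbp, 0.52 for S100b and 0.50 for Ngfr. Permutation results kept their side of the threshold at both pseudocounts.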
